A study of Mus musculus with 3 samples.

Results

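The 9 genes described here encode adhesion molecules that face each other across synapses: the neurexins Nrxn2 and Nrxn3, the neuroligins Nlgn1, Nlgn2 and Nlgn3, and the leucine-rich repeat transmembrane proteins Lrrtm1, Lrrtm2, Lrrtm3 and Lrrtm4. They were taken by symbol from the 32531 gene rows of the count tables, and all 9 had a row. The tables come from adult C57BL/6J mice of the Kcnip2-TRAP line NIDA115, which carry the ribosomal protein L10a fused to EGFP under Kcnip2 regulatory sequences. Ribosomes with this tag were immunopurified from untreated cerebral cortex, and the RNA bound to them was sequenced in 3 libraries of a single group. The labels do not say whether each library came from its own animal, so the p-values below reflect library-to-library spread alone, and that spread may be technical. No input or unbound RNA was analysed here, and levels therefore describe the immunoprecipitate and not its enrichment over cortex. In RNA of this kind, fewer tagged cells with a transcript and less transcript per cell cannot be told apart.

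Neurexins are presynaptic receptors whose extracellular part binds several postsynaptic partners. Neuroligins and LRRTMs are such partners; both bind neurexins in trans and help to organise the receptors and scaffolds beneath them. Neuroligin 1 is found mainly at glutamatergic synapses, neuroligin 2 at GABAergic and glycinergic synapses, and neuroligin 3 at both, whereas LRRTMs act at glutamatergic synapses. Neurexin genes use separate promoters for long (alpha) and short (beta) forms, and the counts of a gene symbol pool these forms.

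Starts of transcription are shown for 3 of the genes because a gene's count sums over all of its starts. RefSeq promoter windows (GRCm38.p6, 250 bases before to 50 after the start) were matched for 6 of the 9 genes. Of 3 Nrxn3 windows, the one shown lies deep inside the gene, at chr12:89812233-89812532 on the plus strand, where 2 annotated transcripts begin with coding lengths of 1701 and 1290 bases. The longest Nrxn3 coding sequence, of 4713 bases, begins upstream. The Nlgn2 window is chr11:69837735-69838034 and the Lrrtm3 window chr10:64090206-64090505, both on the minus strand. Capitals mark the GC box letters GGGCGG, on either strand, and no CCAAT or TATAAA letters were found in these windows on either strand.
Nrxn3 internal start: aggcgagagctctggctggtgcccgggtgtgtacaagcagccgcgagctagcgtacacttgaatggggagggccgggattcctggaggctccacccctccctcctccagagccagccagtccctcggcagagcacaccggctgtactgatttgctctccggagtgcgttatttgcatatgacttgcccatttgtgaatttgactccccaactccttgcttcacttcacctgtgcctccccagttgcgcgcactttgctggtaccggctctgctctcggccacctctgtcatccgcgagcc
Nlgn2: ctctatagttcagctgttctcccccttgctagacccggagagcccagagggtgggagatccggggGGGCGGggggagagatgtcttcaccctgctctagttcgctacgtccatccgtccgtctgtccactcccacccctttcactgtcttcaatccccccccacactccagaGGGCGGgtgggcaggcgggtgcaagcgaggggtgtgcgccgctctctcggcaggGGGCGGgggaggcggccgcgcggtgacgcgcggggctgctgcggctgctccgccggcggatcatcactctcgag
Lrrtm3: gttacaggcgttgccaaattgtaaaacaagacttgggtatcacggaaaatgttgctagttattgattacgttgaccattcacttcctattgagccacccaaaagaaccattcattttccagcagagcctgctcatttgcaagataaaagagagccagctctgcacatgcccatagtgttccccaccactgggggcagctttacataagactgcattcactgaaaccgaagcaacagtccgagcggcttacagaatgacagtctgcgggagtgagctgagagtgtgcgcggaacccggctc
The Nlgn2 window held 3 GC boxes, 26 CpG dinucleotides and 68.7% G+C. The Lrrtm3 window held no GC box, 10 CpG and 48.7% G+C, and the Nrxn3 window shown no GC box, 16 CpG and 60.7% G+C. The other Nrxn3 windows also lie inside the annotated gene. The window from 88794254 held no GC box, 2 CpG and 47.3% G+C. That from 88953140 held 1 GC box, 6 CpG and 47.7% G+C. Over all 32851 RefSeq windows of 300 bases, 35.7% held the GC box letters, the median G+C was 52.7% and the median number of CpG was 7. These letters describe the windows and do not show which start the immunopurified transcripts used.

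The libraries held 11602248 to 14174384 gene counts, of which the 9 genes took 0.156% to 0.162%. All 9 were among the 12509 genes that passed the count filter, and each exceeded 1 CPM (counts per 1000000 gene counts, with scaled library sizes) in every library. Summed CPM of 6 neuronal markers ranged from 38171 to 44220, of 6 glutamatergic markers from 6995 to 9513 and of 6 GABAergic markers from 2423 to 2742. Snap25 made up most of the neuronal sum (31380 to 36012 CPM) and Camk2a most of the glutamatergic sum (5506 to 7377 CPM). Such sums do not measure shares of cells. Of other cells, 8 astrocyte markers summed to 2529 to 4072 CPM, 7 oligodendrocyte markers to 485 to 664, 5 oligodendrocyte precursor markers to 69 to 91, 6 microglial markers to 35 to 59 and 5 endothelial and mural markers to 14 to 20. No marker was at 0 in all 3 libraries, and Cldn5, an endothelial tight junction gene, was at 0 in replicates 2 and 3. The astrocyte sum was lowest in replicate 1, although Gfap and Aldh1l1 were highest there, and the sum of 5 nuclear RNAs was highest, at 10650 CPM against 3538 and 2432. The part of these cells and RNAs in the levels below was not tested. Kcnip2, the gene behind the line, was at 189.3, 155.7 and 148.3 CPM.

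Among the neurexins, Nrxn3 was about 10.6-fold above Nrxn2 per kilobase of exon, and the difference was nearly the same in each library. Nrxn3 (ENSMUSG00000066392.11, mm10 chromosome 12, 88722876 to 90334935, plus strand) had 540.2, 627.1 and 585.1 CPM in replicates 1, 2 and 3. Its level was lowest in replicate 1 and highest in replicate 2. Nrxn2 (ENSMUSG00000033768.17, chromosome 19, 6418731 to 6544169, plus strand) had 57.5, 62.4 and 60.4 CPM, with the same order of libraries. Values were divided by the summed length of all annotated exons of the gene, 12.61 kb for Nrxn3 and 13.81 kb for Nrxn2. This gave 46.34 ± 3.45 CPM per kb for Nrxn3 (SD, n = 3) and 4.35 ± 0.18 for Nrxn2, which did not overlap. The log2 difference per kb was 3.36, 3.46 and 3.40 in replicates 1, 2 and 3 (3.41 ± 0.05 SD, higher in 3 of 3, limma adjusted p = 1.3e-05). Of the summed level per kb of these 2 genes, Nrxn3 took 91.4% ± 0.27 (SD, n = 3); other neurexin genes were not analysed here. Nrxn3 stood at the 94.2 percentile of 12103 genes with a length. Nrxn2 stood at the 49.0 percentile, next to the all-gene median of 4.52 CPM per kb. This place depended on the division by length. By CPM Nrxn2 was at the 74.8 percentile of genes past the filter, with a mean of 60.1 against an all-gene median of 20.11.

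**Figure D1:**
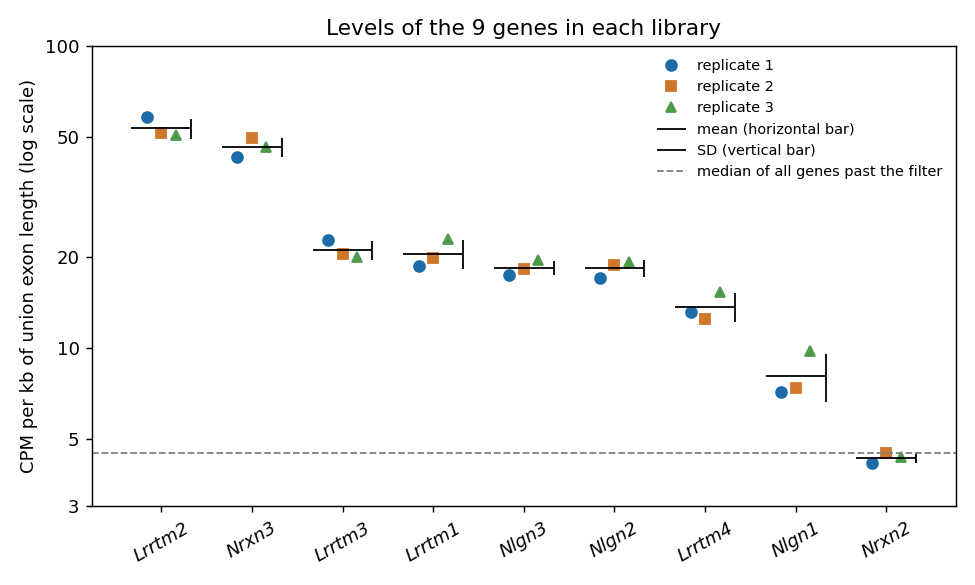
CPM per kilobase of union exon length (log axis) of the 9 genes in each of the 3 libraries, in order of their mean; horizontal bars are means, vertical bars SD, and the dashed line is the median of 4.52 over all genes past the filter. Lrrtm2 and Nrxn3 sit above 40, Nrxn2 sits at the dashed line, and the other genes lie between.

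Of the neuroligins, Nlgn2 and Nlgn3 were level with each other per kilobase of exon, and Nlgn1 was about 2.3-fold below both. Nlgn3 (ENSMUSG00000031302.16, chromosome X, 101299168 to 101325963, plus strand) was at 162.6, 170.2 and 180.9 CPM in replicates 1, 2 and 3. Nlgn2 (ENSMUSG00000051790.15, chromosome 11, 69823122 to 69837784, minus strand) was at 98.7, 109.5 and 111.8 CPM. Nlgn1 (ENSMUSG00000063887.13, chromosome 3, 25426215 to 26332460, minus strand) was at 96.1, 99.1 and 131.4 CPM. All 3 neuroligins were lowest in replicate 1 and highest in replicate 3, and Nlgn1 stood out by its gap between replicate 3 and the other libraries. Divided by exon lengths of 9.27, 5.79 and 13.42 kb, Nlgn3 was at 18.47 ± 0.99 CPM per kb (SD, n = 3), Nlgn2 at 18.44 ± 1.21 and Nlgn1 at 8.11 ± 1.46. The Nlgn1 values did not overlap those of the other neuroligins.

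The log2 difference per kb between Nlgn3 and Nlgn2 was 0.04, -0.04 and 0.01 in replicates 1, 2 and 3, with a 95% interval of -0.28 to 0.29 (limma adjusted p = 0.983). With no division by length Nlgn3 was above Nlgn2 by 0.68 (limma adjusted p = 0.00197), and by coding length by 0.67 (adjusted p = 0.0021). Nlgn2, the neuroligin of inhibitory synapses, exceeded Nlgn1, that of excitatory synapses, by 1.25, 1.36 and 0.98 on the log2 scale (1.20 ± 0.19 SD, limma adjusted p = 0.000333). That difference depended on the divisor: by longest transcript it was 1.07 (limma adjusted p = 0.000579), with no division by length it was -0.02 (limma adjusted p = 0.952), and per kilobase of coding sequence -0.0044 (adjusted p = 0.987). The longest annotated Nlgn1 transcript has 11807 bases, of which 21.4% are coding, against 45.0% of 5568 bases for Nlgn2. Nlgn3 exceeded Nlgn1 by 1.20 ± 0.18 on the log2 scale per kb (limma adjusted p = 0.000291), a call that held under all 4 divisors. Of the summed neuroligin level per kb, Nlgn3 took 41.1% ± 0.94, Nlgn2 41.0% ± 1.32 and Nlgn1 17.9% ± 1.92 (SD, n = 3), and per kilobase of coding sequence 44.2%, 27.8% and 28.0%.

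The LRRTM family was led by Lrrtm2, with about 2.5-fold to 3.9-fold more reads per kilobase of exon than any other member. Lrrtm2 (ENSMUSG00000071862.3, chromosome 18, 35209003 to 35215024, minus strand) was at 349.4, 310.1 and 305.6 CPM in replicates 1, 2 and 3. Lrrtm3 (ENSMUSG00000042846.8, chromosome 10, 63928472 to 64090277, minus strand) was at 96.7, 87.1 and 85.1 CPM. Both genes were highest in replicate 1, unlike the other 7 genes. Lrrtm1 (ENSMUSG00000060780.2, chromosome 6, 77242689 to 77257791, plus strand) was at 56.7, 60.4 and 69.7 CPM. Lrrtm4 (ENSMUSG00000052581.13, chromosome 6, 80018877 to 80810143, plus strand), whose product also binds heparan sulfate proteoglycans, was at 81.0, 77.1 and 94.7 CPM. These last genes were highest in replicate 3.

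Per kb of exon, with lengths of 6.02, 4.25, 3.03 and 6.15 kb, Lrrtm2 was at 53.42 ± 4.0 (SD, n = 3), Lrrtm3 at 21.09 ± 1.47, Lrrtm1 at 20.53 ± 2.21 and Lrrtm4 at 13.70 ± 1.5. Lrrtm2 did not overlap any other LRRTM. It exceeded Lrrtm3 by 1.35, 1.33 and 1.34 on the log2 scale in replicates 1, 2 and 3 (limma adjusted p = 7.45e-05), a spread of 0.01 SD. It exceeded Lrrtm1 by 1.38 ± 0.25 (adjusted p = 0.000129) and Lrrtm4 by 1.96 ± 0.22 (adjusted p = 1.7e-05 in limma), higher in every library. Lrrtm3 and Lrrtm1 were not separated: the difference was 0.28, 0.04 and -0.20, with an interval of -0.35 to 0.43 (limma adjusted p = 0.819), though with no division by length Lrrtm3 was above by 0.53 (adjusted p = 0.0176). Both were above Lrrtm4 per kb (0.62 ± 0.22, limma adjusted p = 0.00622, and 0.58 ± 0.08, adjusted p = 0.00693). Neither of these calls held under other divisors, and Lrrtm1 lay below Lrrtm4 with no division by length (-0.43, limma adjusted p = 0.03). The call of Lrrtm3 over Lrrtm4 also ended without replicate 1 (0.54, limma adjusted p = 0.0591), and that of Lrrtm1 over Lrrtm4 without replicate 2 (0.54, adjusted p = 0.0732). Lrrtm2 took 49.1% ± 2.51 of the summed LRRTM level per kb (SD, n = 3), Lrrtm3 19.4% ± 0.95, Lrrtm1 18.9% ± 2.24 and Lrrtm4 12.6% ± 1.31.

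Across families, Lrrtm2 and Nrxn3 formed the top of the order and Nrxn2 the bottom. The order of mean log2 CPM per kb was Lrrtm2 (5.74 ± 0.11 SD, n = 3), Nrxn3 (5.53 ± 0.11), Lrrtm3 (4.40 ± 0.10), Lrrtm1 (4.36 ± 0.15), Nlgn3 (4.21 ± 0.08), Nlgn2 (4.20 ± 0.10), Lrrtm4 (3.77 ± 0.15), Nlgn1 (3.01 ± 0.25) and Nrxn2 (2.12 ± 0.06). Among neighbours in this order, Lrrtm2 and Nrxn3 did not differ by the test (0.21 ± 0.20, interval -0.14 to 0.55, limma adjusted p = 0.2), nor did Lrrtm1 and Nlgn3 (0.15 ± 0.08, interval -0.20 to 0.50, adjusted p = 0.356). Lrrtm3, Lrrtm1, Nlgn3 and Nlgn2 were not separated from each other in any pairing per kb of exon. The step from Nrxn3 to Lrrtm3 was 1.13 ± 0.20 (limma adjusted p = 0.000319), that from Nlgn2 to Lrrtm4 0.43 ± 0.14 (adjusted p = 0.0333), that from Lrrtm4 to Nlgn1 0.77 ± 0.11 (adjusted p = 0.00272) and that from Nlgn1 to Nrxn2 0.88 ± 0.24 (adjusted p = 0.00212), all with 1 sign in every library. The step from Lrrtm4 to Nlgn1 was not called with no division by length (-0.36, limma adjusted p = 0.163) or by coding length (0.15, adjusted p = 0.558). Lrrtm1 was below Nlgn3, and called, with no division (-1.46, limma adjusted p = 6.37e-05) and by coding length (-0.77, adjusted p = 0.00152), and so was Lrrtm3 (-0.93, limma adjusted p = 0.000785, and -0.40, adjusted p = 0.029). The step from Nlgn2 to Lrrtm4 did not pass when any single library was left out (0.46, 0.35 and 0.48 without replicates 1, 2 and 3, limma adjusted p = 0.111, 0.153 and 0.0545). Nor was that step called by longest transcript (0.02, limma adjusted p = 0.934), with no division (0.34, adjusted p = 0.0772) or by coding length (-0.16, adjusted p = 0.389).

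Of 36 pairs of the 9 genes, 29 were called, each with the same sign in 3 of 3 libraries, and 7 were not. Most genes of the profile differ from any given gene, so this count says little about the family. Of 12102 other genes tested, the same fits called 85.3% different from Nrxn2, 96.3% from Nrxn3, 82.8% from Nlgn1, 91.8% from Nlgn2 and 92.0% from Nlgn3. For the LRRTMs the share was 91.7% against Lrrtm1, 96.9% against Lrrtm2, 92.7% against Lrrtm3 and 88.4% against Lrrtm4. With 3 libraries the smallest p of an exact sign-flip test is 0.25, and the limma p-values draw their precision from the spread over all genes.

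**Figure D2:**
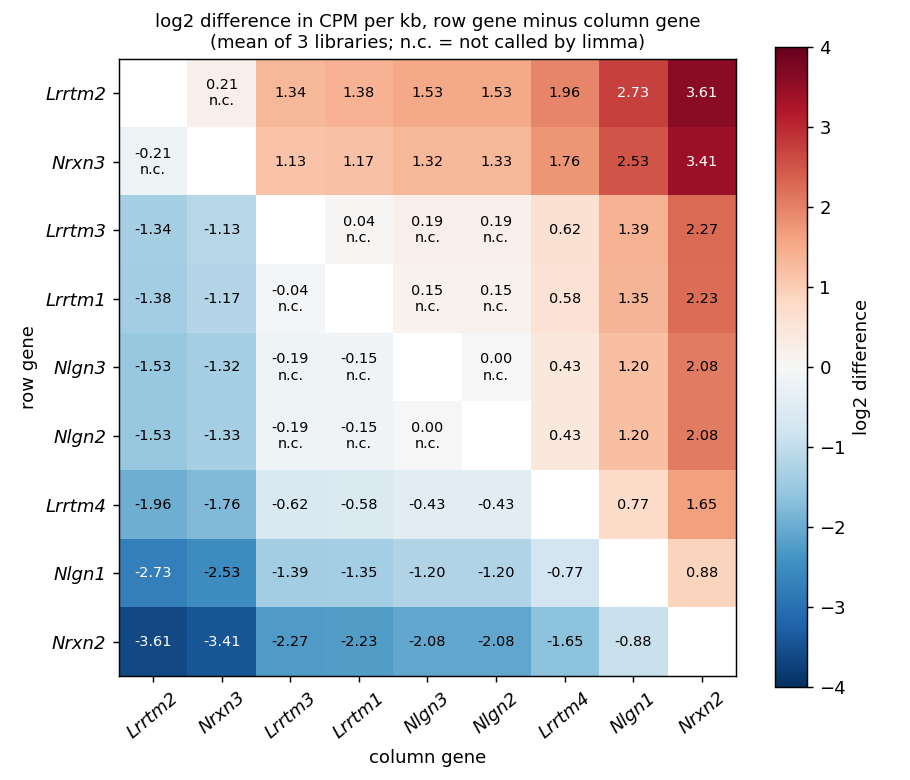
Mean log2 difference in CPM per kilobase of exon, row gene minus column gene, for all pairs of the 9 genes ordered by level; n.c. marks pairs not called by limma. The rows of Lrrtm2 and Nrxn3 are positive against each of the 7 other genes (1.13 to 3.61), and the uncalled pairs form a block of Lrrtm3, Lrrtm1, Nlgn3 and Nlgn2, plus Lrrtm2 with Nrxn3.

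The divisor moved the places in the middle of the order and left both ends in place. Lrrtm2 and Nrxn3 took places 1 and 2, in either order, and Nrxn2 place 9 under each of 4 divisors (none, union exon length, longest transcript and longest coding length). All 14 pairs of Lrrtm2 or Nrxn3 with the other 7 genes were called in the same direction under each of 10 alternative settings. Their own order changed: Lrrtm2 minus Nrxn3 was -0.86 with no division by length (limma adjusted p = 0.00122), -0.38 by longest transcript (adjusted p = 0.039) and 0.75 by coding length (adjusted p = 0.00227). Nlgn3 was in place 3 by count and by coding length and in place 5 per kb of union exon. Lrrtm1, with the shortest exon length, was in place 4 per kb of exon and in place 8 by count and by coding length. Nrxn2 and Nlgn1 were not separated by longest transcript (Nlgn1 minus Nrxn2, 0.02, limma adjusted p = 0.954), since the longest Nrxn2 transcript, 6667 bases, is far shorter than its 13812 bases of exon. Nor were Lrrtm1 and Nrxn2 with no division by length (Lrrtm1 minus Nrxn2, 0.05, limma adjusted p = 0.784, against 2.23 per kb of exon). Lrrtm1 was above Nlgn1 per kb of exon (1.35, limma adjusted p = 5.91e-05) and below it with no division (-0.79, adjusted p = 0.00183).

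**Figure D3:**
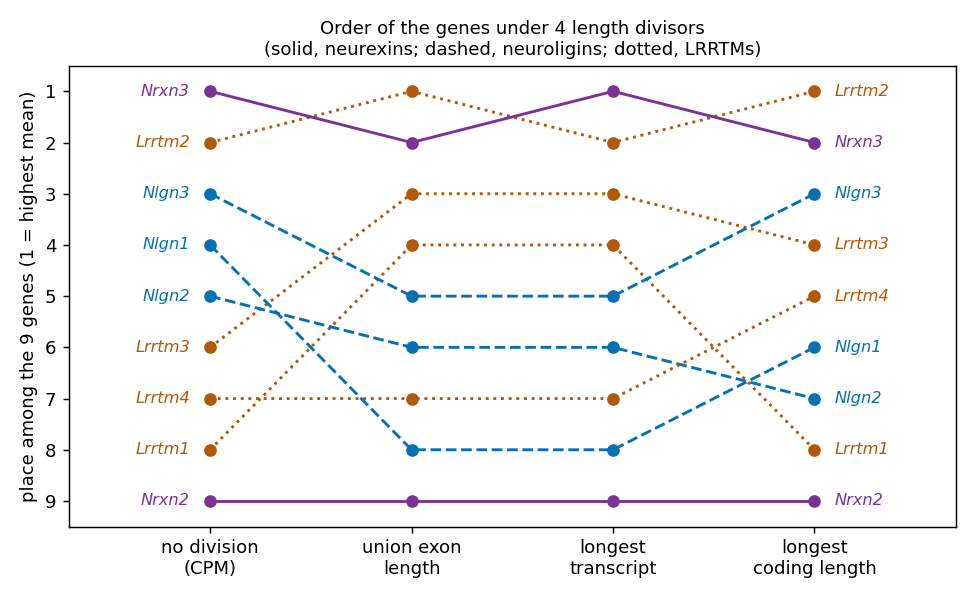
Place of each gene among the 9 by mean level (1 is the highest) with no length division and with 3 length divisors. Lrrtm2 and Nrxn3 exchange the upper places, Nrxn2 keeps place 9, and Lrrtm1 moves between places 4 and 8.

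None of the 9 genes was called as more variable between libraries than genes of its level. In an F test on edgeR's quasi-dispersions 0 of 9 were called and 0 had an unadjusted p under 0.05. DESeq2 marked 0 of them as dispersion outliers. Over all genes tested 0.0879% were called (11 of 12509) and 715 had an unadjusted p under 0.05. With so few genes called, the lack of calls says little about these 9 genes. The median ratio of a gene's dispersion to the trend was 0.64 over the 9 genes and 0.71 over all genes. Nlgn1 had the largest ratio, 2.79, at the 91.2 percentile of genes (F test, unadjusted p = 0.0814, adjusted p = 0.92), and Nrxn2 the smallest, 0.11. The coefficient of variation of CPM was 18.0% for Nlgn1, 10.9% for Lrrtm4, 10.8% for Lrrtm1 and 4.1% to 7.5% for the other genes. Counting error alone gives 1.09% to 3.88% for counts of this size (665 to 8492 reads).

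The genes did not share one pattern over the libraries. Nrxn2 and Nrxn3 were highest in replicate 2, Lrrtm2 and Lrrtm3 in replicate 1, and the 3 neuroligins, Lrrtm1 and Lrrtm4 in replicate 3. The log2 deviation from a gene's own mean in replicate 3 was 0.29 for Nlgn1, 0.17 for Lrrtm1 and Lrrtm4, 0.08 for Nlgn3 and 0.07 for Nlgn2. In replicate 1 it was 0.12 for Lrrtm2 and 0.11 for Lrrtm3, and -0.05 to -0.17 for the others. With 3 libraries these patterns are a description. Replicate 1 was also the library with the highest nuclear RNA sum and the lowest astrocyte sum. Summed glutamatergic markers were lowest there (6995 CPM against 8584 and 9513) and GABAergic markers highest (2742 against 2457 and 2423). The part of these in the patterns was not tested.

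**Figure D4:**
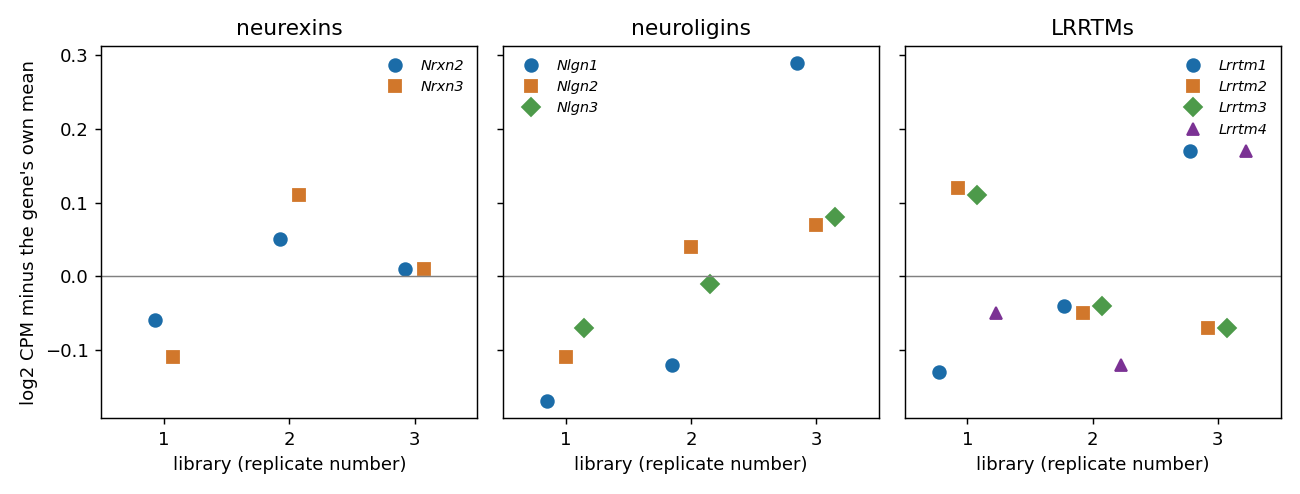
Log2 CPM minus the gene's own mean in each library, by family; each point is a gene in a library. Lrrtm2 and Lrrtm3 lie above 0 in replicate 1, the other genes lie below it, and Nlgn1 reaches 0.29 in replicate 3.

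A feature that the choice of genes did not use is that 3 of the LRRTM genes lie inside alpha-catenin genes, on the opposite strand. Alpha-catenins link cadherin adhesion complexes to actin. Lrrtm1 lies within Ctnna2, Lrrtm2 within Ctnna1 and Lrrtm3 within Ctnna3, and among these only Lrrtm2 shares annotated exon bases with its host (95 bases, 1.58% of its exon length). Each nested gene was above its host per kilobase of exon in 3 of 3 libraries. Lrrtm1, Lrrtm2 and Lrrtm3 stood at the 84.6, 95.4 and 85.0 percentiles of genes with a length. Each was thus above most genes, so a level above the host says little about nesting. Ctnna1 was at 58.4, 63.4 and 58.7 CPM, and Lrrtm2 exceeded it by 2.51 ± 0.15 on the log2 scale per kb (limma adjusted p = 3.57e-06). Ctnna2 was at 80.5, 88.4 and 91.7 CPM, and Lrrtm1 exceeded it by 0.71 ± 0.08 per kb of exon (limma adjusted p = 0.00227). With no division by length Lrrtm1 was below Ctnna2 (-0.48, limma adjusted p = 0.0168), and by longest transcript the difference was 0.01 (adjusted p = 0.948). Ctnna3 had 17, 21 and 9 reads and did not pass the count filter, and Lrrtm3 was above it by 7.08 ± 0.66 (SD, n = 3), without a test. The host genes were taken from the annotation, not picked by level.

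Exon overlap with other annotated genes was larger for a few members. Without known strand handling, reads shared with genes on the opposite strand cannot be assigned with certainty. On the same strand, strand handling could not separate them. Gm21986, a transcript on the same strand, covers 41.2% of the Nlgn3 exon length. The antisense gene Gm4409 covers 25.1% of Lrrtm4, and the antisense A830092H15Rik 9.16% of Nlgn1. Exons of other genes cover 6.44% of Nrxn2, including the renal transporter gene Slc22a12 with 0, 1 and 23 reads, and 3.48% of Nrxn3. Nlgn2, Lrrtm1 and Lrrtm3 have no exon overlap in this annotation. Slc22a12 had a row in the count tables, whereas Gm21986, Gm4409 and A830092H15Rik had none under these symbols. The sources used here do not say whether the authors' annotation held them under other names.

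Most genes of the wider adhesion pathway were detected, at levels that spread widely. All genes of 6 of 7 lists of related genes passed the count filter, as did 14 of 16 genes listed as neurexin ligands and cofactors. Of all gene rows, 12509 of 32531 passed. No gene of these lists was called for variation between libraries in the F test on edgeR's quasi-dispersions. Only 0.0879% of all genes tested were called, so the lack of calls says little about the lists. Over the 9 genes the median was 18.47 CPM per kb, and 8 of 9 lay above the all-gene median of 4.52. The exception, Nrxn2, was above the all-gene median with no division by length (60.1 against 20.11 CPM). The intracellular binding partners of neurexins and neuroligins had a median of 19.61 over 10 genes. The lowest of them was Apba2, which encodes a Mint adaptor, at 8.62 ± 1.22 CPM per kb (SD, n = 3).

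The list of other ligands and cofactors of neurexins had a median of 5.49 CPM per kb over 14 genes. It holds the calsyntenin genes as a family, and whether each listed product binds neurexins was not tested. The highest gene of the list was Clstn1, which encodes calsyntenin 1, at 129.05 ± 24.68 CPM per kb (SD, n = 3). Clstn2 was at 45.98 ± 1.07 and Clstn3 at 12.69 ± 1.14. The neuroligin inhibitors Mdga1 and Mdga2 bind neuroligins in cis and block their contact with neurexins. Per kb of exon both were below the all-gene median, at 1.0 ± 0.49 and 2.46 ± 0.35. For Mdga2 this depended on the division by length: its mean was 45.15 CPM, against an all-gene median of 20.11 CPM. Mdga1 was at 9.54 CPM. Of the splicing regulators of neurexin splice site 4, which sets partner choice, Khdrbs3 was at 21.64 ± 1.84 and Khdrbs2 at 0.24 ± 0.14.

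Parallel adhesion systems had medians of 12.64 (11 receptor phosphatases and their ligands), 19.21 (5 netrin-Gs and netrin-G ligands) and 14.74 (10 latrophilins, FLRTs and teneurins). Per kb of exon, Slitrk1, which encodes a ligand of receptor phosphatases, was highest in the first list at 38.44 ± 1.52 (SD, n = 3). The interleukin-1 receptor accessory gene Il1rap was lowest at 1.30 ± 0.33. By CPM the phosphatase gene Ptprs was highest in that list, at 302.16 against 206.00 for Slitrk1. Lrrc4c, which encodes netrin-G ligand 1, reached 88.55 ± 1.32, and Ntng2, which encodes netrin-G2, 1.62 ± 0.20. Adgrl1, which encodes latrophilin 1, was at 37.00 ± 4.46 and Tenm4, a teneurin gene, at 3.05 ± 0.19. These lists describe levels and were not tested against the 9 genes.

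**Figure D5:**
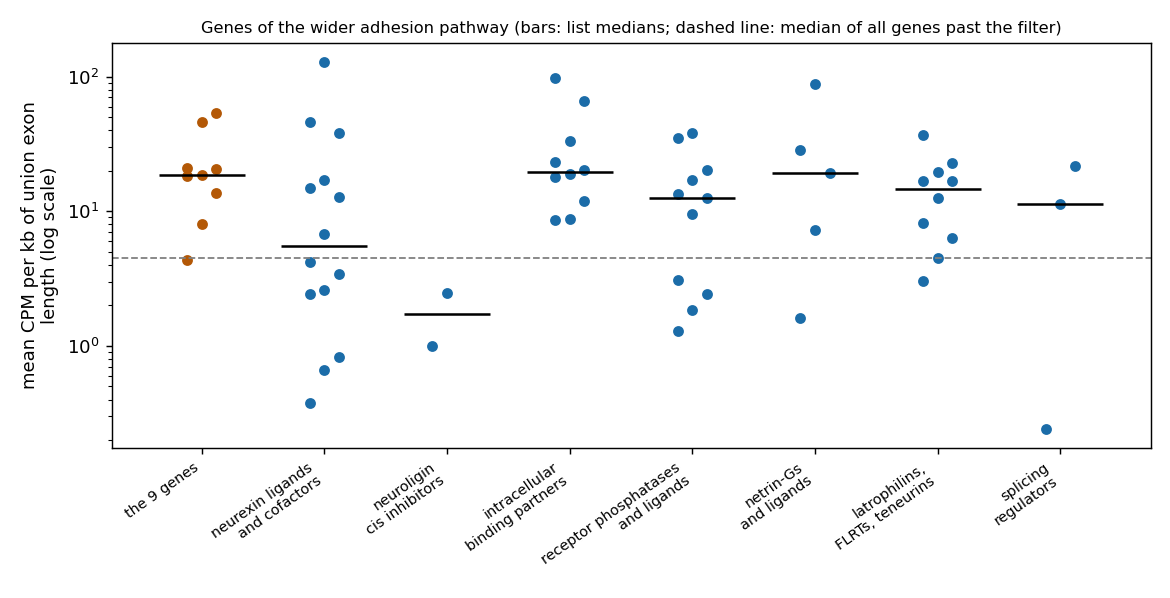
Mean CPM per kilobase of exon (log axis) of the 9 genes and of the genes of 7 related lists that passed the count filter; each point is a gene, bars are list medians, and the dashed line is the median of 4.52 over all genes past the filter. The median of the 9 genes, 18.47, lies near that of the intracellular binding partners, 19.61, and the neuroligin inhibitors lie below the dashed line.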

How the data were processed

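Ribosome-bound RNA of 3 libraries of 1 group was analysed. The authors deposited raw read counts per gene symbol, 1 table per library; STAR 2.0.0e, HTSeq and mm10 are named, per the submitters' processing notes. The sources used here give no counting mode, strand or annotation release. The rows of reads outside genes, ambiguous (2.37% to 2.65%) or not uniquely aligned were left out. CPM used TMM-scaled library sizes over 32531 gene rows (edgeR 4.0.16, R 4.3.3). A count of 0 allows up to 0.213 to 0.256 CPM (3 counts), for counting error only. Genes past filterByExpr (minimum count 10) were tested. All library pairs differed by more than sampling noise (chi-square per degree of freedom 12.3 to 28.5).

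Lengths and positions came from GENCODE M21 (mm10), found for 96.8% of filtered genes; the union of exons can exceed any expressed transcript. For each member, log2 CPM per kb (prior count 2) of every gene minus the member's was fitted with limma 3.58.1 (intercept only, two-sided, Benjamini-Hochberg over all genes at 0.05). A pair was called when it passed in both members' fits, and the larger p is given. Variation between libraries was tested by dividing each quasi-dispersion by its trend value (edgeR glmQLFit, robust). The p-value of this ratio came from an F distribution computed outside edgeR. It used the largest prior degrees of freedom of the fit for every gene. DESeq2 1.42.0 was an alternative. Scripts were tested on simulated data. Members and lists were chosen with earlier results of these data known. All members are named; of each pathway list the highest and lowest gene past the filter are named, plus any that varied between libraries; some of these genes are not reported here. Host genes of nested members were added after values were seen.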

Additional observations from a re-analysis of the deposited data

How the results depend on the processing

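Of the members, 0 were called for variation between libraries under each of 8 alternatives. Over all genes the number called was 66 with no count filter, 5 with a non-robust fit and 26 dispersion outliers by DESeq2, against 11, and 4 to 9 with a replicate left out; the cause was not tested. Of 36 pairs, 25 to 29 were called under 10 alternatives (26 to 28 with a replicate left out), and 19 were called with the same sign under every one. The number of pairs was 29 with a prior count of 0.5, DESeq2 size factors or robust moderation.

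All differences between members that changed sign follow, on the log2 scale. With no division by length, those called were Lrrtm2 minus Nrxn3 at -0.86, Lrrtm1 minus Nlgn1 at -0.79, Lrrtm1 minus Nlgn2 at -0.78, Lrrtm1 minus Nlgn3 at -1.46, Lrrtm3 minus Nlgn3 at -0.93 and Lrrtm1 minus Lrrtm4 at -0.43. Those not called were Nlgn2 minus Nlgn1 at -0.02, Lrrtm3 minus Nlgn1 at -0.27, Lrrtm4 minus Nlgn1 at -0.36 and Lrrtm3 minus Nlgn2 at -0.25. By longest coding length, which replaced the planned RefSeq protein length after the data were seen, Lrrtm1 minus Nlgn3 was -0.77 and Lrrtm3 minus Nlgn3 -0.40, both called. Not called were Nlgn2 minus Nlgn1 at -0.0044, Lrrtm1 minus Nlgn1 at -0.10, Lrrtm1 minus Nlgn2 at -0.10, Nlgn2 minus Lrrtm4 at -0.16 and Lrrtm1 minus Lrrtm4 at -0.26. By longest transcript Lrrtm2 minus Nrxn3 was -0.38, called. With a replicate left out, Nlgn3 minus Nlgn2 ranged from -0.02 to 0.03 (-0.0029 without replicate 3) and Lrrtm3 minus Lrrtm1 from -0.08 to 0.16, none called. Against its host Ctnna2, Lrrtm1 was at -0.48 with no division, an alternative chosen after seeing the data.

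Family shares moved with the divisor. With no division they were 9.3% for Nrxn2, 90.7% for Nrxn3, 28.0%, 27.6% and 44.4% for Nlgn1, Nlgn2 and Nlgn3, and 11.2%, 57.6%, 16.1% and 15.1% for Lrrtm1 to Lrrtm4. By coding length they were 28.0%, 27.8% and 44.2% for the neuroligins and 11.5%, 60.0% and 14.8% for Lrrtm1, Lrrtm2 and Lrrtm3. By longest transcript they were 10.9% for Nrxn2, 89.1% for Nrxn3, 39.6% for Nlgn2 and 15.9% for Lrrtm4. CPM moved by less than 1 SD under DESeq2 size factors. No paired analysis was possible because the study has a single group. Depth did not limit the members, whose lowest count was 665 reads.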
